A study of Mus musculus with 20 samples.

Results

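Claudins are described here in the outer eyecup, the sheet of retinal pigment epithelium (RPE) and choroid at the back of the eye, of WT and Stra6-/- mice on vitamin A sufficient (VAS) or deficient (VAD) diets. The members are 10 named genes, Cldn1, Cldn2, Cldn3, Cldn4, Cldn5, Cldn7, Cldn10, Cldn12, Cldn19 and Cldn23, chosen by symbol from the 24411 genes of the deposited table, and all 10 passed the filter on low values. RNA-seq was performed on 20 libraries, 5 in each of 4 groups: VAS WT, VAD WT, VAS Stra6-/- and VAD Stra6-/-. All mice were C57BL/6, stayed with dams on standard chow until weaning at about 28 days and then received a diet with 4 IU (VAS) or 0 IU (VAD) of vitamin A per g for 12 weeks. The knockout lacks STRA6, the membrane transporter that takes up vitamin A from its serum carrier, in the whole body, so that no group isolates a loss from the RPE. The study's methods describe each library as both eyecups of a single mouse, taken after removal of the anterior segment, a dispase treatment and peeling of the neural retina.

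Claudins are small proteins that cross the membrane 4 times and seal the space between neighbouring cells at tight junctions. Some members make the seal tighter and others form channels for small ions, so the set of claudins that a cell expresses sets how leaky its layer is and to which ions. The tight junctions of the RPE form the outer blood-retina barrier, while the retinal vessels form the inner barrier through junctions of their endothelial cells, in which Cldn5 is the leading claudin. Cldn19 is the claudin best known from the RPE, and Cldn3, Cldn4 and Cldn7 are typical of surface and glandular epithelia such as cornea, conjunctiva and skin. For the description below, Cldn19, Cldn2, Cldn10 and Cldn12 were taken as the RPE class, Cldn5 as the endothelial class, and Cldn1, Cldn3, Cldn4, Cldn7 and Cldn23 as the surface epithelium class.

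Several properties of the libraries bear on every result. The targeted gene Stra6 had normalized values (reads divided by 1 size factor per library) of 2414 to 2742 in VAS WT and 564 to 694 in VAS Stra6-/-. In the libraries labelled as VAD Stra6-/- it had 1973 to 2393, above the 669 to 1529 of VAD WT although the label is a knockout. The mean log2 value of the RPE markers described below was 11.9 in VAS WT and 12.0 in VAS Stra6-/-. It was 10.6 in VAD WT and 14.0 in the libraries labelled as VAD Stra6-/-. Stra6 is expressed in the RPE, and its ratio to these markers was not tested. Xist, expressed from the inactive X chromosome of females, and the Y-linked Ddx3y were both present in all 5 libraries labelled as VAD Stra6-/- (3569.8 to 4279.6 and 741 to 969.7), whereas VAS WT had Ddx3y at 981 to 1193 with little Xist (7.69 to 38.4), and VAS Stra6-/- had Xist at 15320.2 to 18052 with Ddx3y at 0 to 1.02. Transcripts of both kinds in each of these 5 libraries are at odds with a single mouse per library, so it is in doubt whether their n of 5 counts separate mice. Genotype, diet and sex composition therefore cannot be told apart in comparisons of these groups. Within VAD WT, replicates 2 and 4 stood apart with high Xist (10912 and 11767), so the main claudin results that rest on VAD WT are also given without them. Their Ddx3y (75.2 and 80.5) was low but above that of VAS Stra6-/-. Replicates 1, 3 and 5 had Ddx3y at 1041 to 1133 and Xist at 174 to 234, above that of VAS WT. Both transcripts were thus present in every VAD WT library as well, and the source of the lower one was not tested. Lists of 12 marker genes of each of 3 cell types also moved with the groups. The summed values of the surface epithelium markers, among them the corneal keratin Krt12, were 664979 to 775652 in VAS WT, 396691 to 1011060 in VAD WT, 914228 to 950314 in VAS Stra6-/- and 32758 to 41564 in the libraries labelled as VAD Stra6-/-. The 12 RPE markers summed to 138734 to 156079, 46082 to 75150, 143613 to 151150 and 581136 to 636173 in the same order, and the 12 endothelial markers to 14730 to 15894, 9977 to 24258, 13610 to 14474 and 20953 to 21670. No marker of these 3 lists was at 0 in all libraries of a group. Some lists of 6 markers of other tissues moved too, by the test given below. Between VAS Stra6-/- and VAS WT, 6 of 6 optic nerve (oligodendrocyte) markers were called lower, at a median log2 fold change of -1.94. All 6 skeletal muscle markers were called higher, at 1.38 (10.8% of all genes lower and 15.9% higher). Of the rod, ciliary, and corneal endothelium and lens lists, 1, 0 and 2 of 6 were lower. Their part in the claudin differences was not tested. In such bulk samples, fewer cells of a type and less RNA per cell cannot be told apart.

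In GRCm38 (GENCODE vM21), the genes of the RPE class lie at chr4:119255414-119262438 (Cldn19), chrX:139800828-139811386 (Cldn2), chr14:118787908-118875489 (Cldn10) and chr5:5489537-5514958 (Cldn12), and Cldn5 at chr16:18776847-18778262. Those of the surface epithelium class lie at chr16:26356642-26371841 (Cldn1), chr5:134986214-134987472 (Cldn3), chr5:134945119-134946934 (Cldn4), chr11:69964779-69967885 (Cldn7) and chr8:35824712-35826559 (Cldn23), and Cldn3 and Cldn4 are neighbours with 39279 bases between them. Promoter sequence from RefSeq (GRCm38.p6) was matched for 9 of the 10 members, with 14 start sites in all. The 250 bases before the start are shown for Cldn1 and Cldn2, which were highest in the libraries labelled as VAD Stra6-/-, and for Cldn3, Cldn4 and Cldn7, which fell together there. Each is written 5′ to 3′ on the strand of the gene, and capitals mark the motifs found in it.
Cldn1, chr16:26371840-26372089 (minus strand): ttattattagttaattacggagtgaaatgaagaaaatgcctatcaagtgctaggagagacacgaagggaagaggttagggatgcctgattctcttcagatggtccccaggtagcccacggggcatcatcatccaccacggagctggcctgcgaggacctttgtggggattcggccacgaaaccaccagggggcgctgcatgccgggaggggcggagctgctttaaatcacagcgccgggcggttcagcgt
Cldn2, chrX:139800558-139800807 (plus strand): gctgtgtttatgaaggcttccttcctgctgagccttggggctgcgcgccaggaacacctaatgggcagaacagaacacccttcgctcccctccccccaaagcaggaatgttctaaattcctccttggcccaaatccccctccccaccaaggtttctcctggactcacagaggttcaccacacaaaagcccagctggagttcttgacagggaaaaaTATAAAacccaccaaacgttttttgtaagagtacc
Cldn3, chr5:134985964-134986213 (plus strand): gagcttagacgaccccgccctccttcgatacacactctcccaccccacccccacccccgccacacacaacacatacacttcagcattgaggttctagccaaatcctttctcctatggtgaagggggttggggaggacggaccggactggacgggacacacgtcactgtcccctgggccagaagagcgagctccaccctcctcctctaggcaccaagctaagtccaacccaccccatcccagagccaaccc
Cldn4, chr5:134946935-134947184 (minus strand): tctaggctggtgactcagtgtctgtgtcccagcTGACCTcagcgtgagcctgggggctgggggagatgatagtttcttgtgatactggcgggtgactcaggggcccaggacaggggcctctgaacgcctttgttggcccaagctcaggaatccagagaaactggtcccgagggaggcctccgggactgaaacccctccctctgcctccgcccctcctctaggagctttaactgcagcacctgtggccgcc
Cldn7, chr11:69964529-69964778 (plus strand): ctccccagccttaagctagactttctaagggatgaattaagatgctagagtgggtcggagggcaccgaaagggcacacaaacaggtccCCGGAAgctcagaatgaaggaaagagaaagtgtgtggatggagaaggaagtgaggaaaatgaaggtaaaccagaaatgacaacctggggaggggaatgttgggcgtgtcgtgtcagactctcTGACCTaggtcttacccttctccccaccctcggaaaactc
Windows of 300 bases, from 250 before to 50 after the start, were searched on both strands for the exact letters ACCGGT (the centre of the site of grainyhead-like factors), AGGTCA (the unit of nuclear receptor sites, those of retinoid receptors included), TATAAA (the box that places the start of transcription), CACGTG or CATGTG (E-boxes of MITF), CCGGAA (ETS factors) and TAATCC (OTX factors). AGGTCA, which 16.3% of 32851 such windows in the genome hold, was found as TGACCT on the other strand in Cldn4, its first base at position -217, and in Cldn7 at position -40, and as AGGTCA at position -31 of the second start site of Cldn7. TATAAA, held by 13.6% of windows, stood at position -35 of Cldn2. CCGGAA, held by 14.9%, was found in windows of Cldn7, Cldn12 and Cldn19, and the E-box of MITF, held by 20.4%, in 1 window of Cldn10. None of the 14 windows held ACCGGT or TAATCC, which 2.33% and 7.06% of all windows hold.

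Scaled by exon length, the claudin set of the eyecup was dominated by the surface epithelium class in 3 groups and differed in the fourth. The summed value per kb of exon over the 10 members was 7857 ± 259 (SD, n = 5) in VAS WT, 6261 ± 1269 in VAD WT, 9669 ± 565 in VAS Stra6-/- and 2952 ± 60.4 in the libraries labelled as VAD Stra6-/-. The surface epithelium class made up 78.1% ± 1.43 of that sum in VAS WT, 80.4% ± 6.82 in VAD WT and 90.0% ± 0.401 in VAS Stra6-/-, against 46.0% ± 2.24 in the libraries labelled as VAD Stra6-/-. There 33.8% was Cldn1 alone, and Cldn3, Cldn4, Cldn7 and Cldn23 together held 12.2% ± 1.23, compared with 75.9% ± 1.54 in VAS WT. There the RPE class reached 28.3% ± 0.849, compared with 5.23% ± 0.458 in VAS WT, 4.38% ± 1.32 in VAD WT and 3.90% ± 0.319 in VAS Stra6-/-. Cldn4 led in VAS WT with 2465 ± 130.4 per kb, followed by Cldn7 (1834 ± 94.1) and Cldn5 (1306 ± 93.2), and these 3 did not overlap one another. In VAS Stra6-/-, Cldn4 alone held 49.4% of the sum. In the libraries labelled as VAD Stra6-/- the order was Cldn1 (997 ± 26.7), Cldn5 (760.4 ± 83.5), Cldn2 (441 ± 28.9) and Cldn12 (269.5 ± 20.7), and of these neighbours only Cldn12 overlapped the next gene, Cldn4 (227 ± 35.7). Cldn19, the claudin best known from the RPE, had the lowest mean of the 10 in VAS WT (70.9 ± 2.88 per kb), VAD WT and VAS Stra6-/-. When the longest transcript was used as the length instead, Cldn7 came before Cldn4 in VAS WT and in VAD WT, and its values overlapped those of Cldn4 in both.

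**Figure D1:**
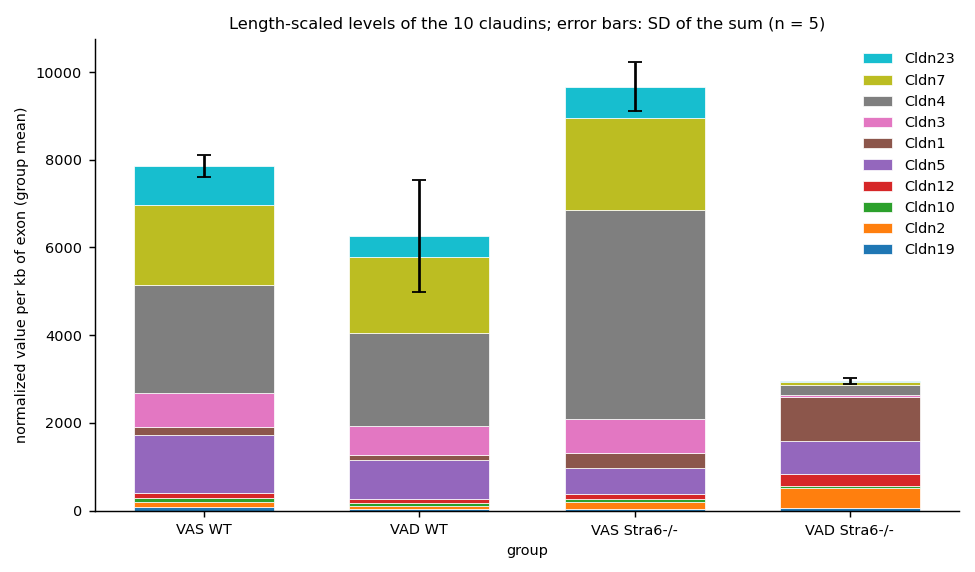
Stacked bars give the group mean of each claudin's normalized value per kb of exon (n = 5 libraries per group), and the error bars the SD of the sum over the 10 claudins. The bar of the libraries labelled as VAD Stra6-/- is the lowest at 2952 and the only one in which Cldn1 is the largest segment.

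All comparisons between groups were made with limma on log2(value + 1), and a gene was called at a Benjamini-Hochberg adjusted p under 0.05 over 18807 genes. Fold changes are on this log2 scale, and values of a gene in different groups are compared without length scaling. Comparisons that have a group in common share its libraries, so their fold changes are not independent of each other.

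Between the genotypes on the VAS diet, the family differed in both directions. Cldn4 and Cldn1 were higher in VAS Stra6-/- than in VAS WT, Cldn5, Cldn19 and Cldn10 were lower, and 5 members were not called. These 5 calls of 10 compare with 26.6% of all genes called in this comparison (15.9% higher and 10.8% lower), and the median log2 fold change was 0.00 over the members and 0.02 over all genes. The 6 members whose libraries did not overlap between the groups were Cldn1, Cldn2, Cldn4, Cldn5, Cldn19 and Cldn23, against 32.5% of all genes.

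In WT mice, 6 members were lower on the VAD than on the VAS diet, Cldn1, Cldn2, Cldn5, Cldn10, Cldn19 and Cldn23, and none was higher, against 8.78% of all genes called (5.50% lower and 3.29% higher). The median log2 fold change was -0.53 over the members and 0.00 over all genes. The RPE markers moved with this comparison, 11 of 12 called lower and none higher, at a difference of -1.26 in their mean log2 value, and the ratios of the claudins to their markers are given further on. Of the 6, Cldn1 was the only one whose libraries overlapped between VAD WT and VAS WT, and 6.34% of all genes did not overlap. Without VAD WT replicates 2 and 4, Cldn12 was also lower at -0.46 (adjusted p = 0.000856) and Cldn7 was higher at 0.33 (adjusted p = 0.00177), so that 7 members were lower and 1 higher, against 37.9% of all genes called (20.3% lower and 17.6% higher). The other members called had log2 fold changes of -1.06 (adjusted p = 5.78e-09) for Cldn1, -1.53 (adjusted p = 3.58e-09) for Cldn2, -0.70 (adjusted p = 2.15e-05) for Cldn5 and -0.53 (adjusted p = 0.0161) for Cldn10 in that fit, with Cldn19 and Cldn23 given by member below. In a fit of these 2 groups alone only Cldn2 and Cldn5 were lower, and Cldn1 (adjusted p = 0.246), Cldn10 (0.082), Cldn19 (0.116) and Cldn23 (0.0651) did not pass. Leaving out 1 library, VAS WT replicate 3 or 5 or VAD WT replicate 1, 3 or 5, ended the call of Cldn1, whose log2 fold change lay between -0.86 and -0.51 over all such fits. The call of Cldn10 ended without VAS WT replicate 1, 4 or 5 or VAD WT replicate 1, at log2 fold changes between -0.61 and -0.45.

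The libraries labelled as VAD Stra6-/- differed from VAS Stra6-/- in 9 of 10 members. Cldn1, Cldn2, Cldn12, Cldn19 and Cldn5 were higher, Cldn3, Cldn4, Cldn7 and Cldn23 were lower, and Cldn10 was not called at 0.19 (SE 0.15, adjusted p = 0.281). Among all genes 53.2% were called (24.4% higher and 28.8% lower). The libraries of 9 members did not overlap between these groups, as for 51.3% of all genes. Against VAD WT, 8 members were called, Cldn1, Cldn2, Cldn12 and Cldn19 higher and Cldn3, Cldn4, Cldn7 and Cldn23 lower, with 55.9% of all genes called (26.2% higher and 29.6% lower). There 7 members did not overlap, as for 37.4% of all genes. Without VAD WT replicates 2 and 4, 63.1% of all genes were called in that comparison, and Cldn19 was no longer among them at 0.28 (adjusted p = 0.102). The other 7 were still called in the same direction, from -5.15 for Cldn7 to 3.55 for Cldn1. Since calls were this frequent across the genome, sizes and directions are given by member below.

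**Figure D2:**
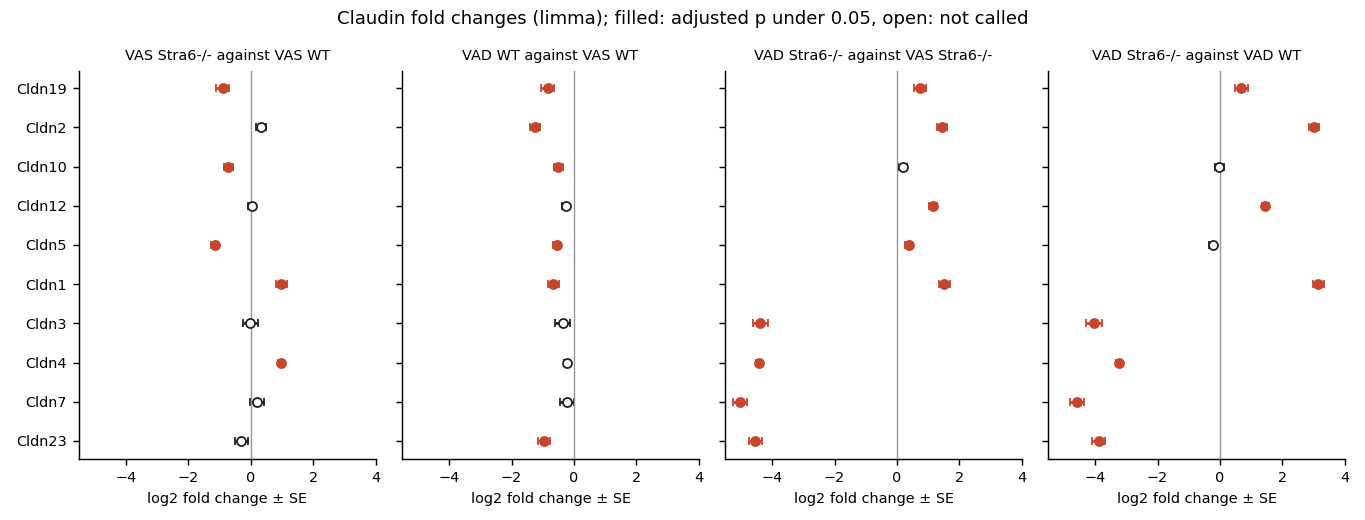
Each panel is a comparison, and each point the log2 fold change of a claudin from limma with its standard error as a bar. Filled points passed an adjusted p of 0.05, and in both comparisons of the libraries labelled as VAD Stra6-/- Cldn3, Cldn4, Cldn7 and Cldn23 lie below -3 while Cldn1 and Cldn2 lie above 1.

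Cldn19, a tight junction claudin of RPE and kidney, was highest in VAS WT. Its normalized values were 315, 312, 304, 292 and 287 in VAS WT and 143, 194, 162, 197 and 122 in VAS Stra6-/-. All 5 libraries of VAS Stra6-/- were below every VAS WT library, and the log2 fold change was -0.90 (SE 0.20, adjusted p = 0.00199). VAD WT had 184, 105, 236, 115 and 253, also below VAS WT in all 5 libraries, with a log2 fold change of -0.85 (SE 0.20, adjusted p = 0.00995) and of -0.44 (adjusted p = 0.0217) without replicates 2 and 4, but it did not pass in a fit of these 2 groups alone (adjusted p = 0.116). In the libraries labelled as VAD Stra6-/-, Cldn19 stood at 276, 262, 289.7, 248 and 276, above every VAS Stra6-/- library but overlapping the highest VAD WT library. The log2 fold change was 0.74 (SE 0.20, adjusted p = 0.00371) against VAS Stra6-/- and 0.69 (SE 0.20, adjusted p = 0.00649) against VAD WT. Within VAD WT, replicates 2 and 4 had the lowest Cldn19 but the highest mean log2 value of the RPE markers, 11.1 in each. The mean was 10.3 to 10.4 in replicates 1, 3 and 5. In that group Cldn19 thus split in the direction of Cldn3 and Cldn7, against its place in the RPE class. The optic nerve (oligodendrocyte) markers split that way too, with mean log2 values of 7.75 and 7.81 in replicates 2 and 4. They were at 9.72 to 9.98 in replicates 1, 3 and 5. The endothelial, rod, ciliary and skeletal muscle markers were higher in replicates 2 and 4, as the RPE markers were. The part of these tissues in the split of Cldn19 was not tested. Exons of Cldn19 share 90 bases with the gene Gm12927 on the opposite strand.

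Cldn2, which forms a channel for sodium and water in leaky epithelia, moved the most within the RPE class. It measured 471, 426, 372, 400.0 and 495 in VAS WT and 198, 258, 123, 231 and 134 in VAD WT. No VAD WT library reached the lowest VAS WT library, and the log2 fold change was -1.24 (SE 0.15, adjusted p = 1.27e-05), close to the -1.26 of the mean RPE marker. VAS Stra6-/- had 530.2, 542, 553, 500.0 and 578 and the libraries labelled as VAD Stra6-/- had 1325, 1569.5, 1415, 1507 and 1510.1, so that the ranges of all 4 groups were separate, with VAD WT lowest and the libraries labelled as VAD Stra6-/- highest. The rise from VAS Stra6-/- was 2.71-fold in means, a log2 fold change of 1.44 (SE 0.15, adjusted p = 6.92e-08), and that from VAD WT was 3.01 (SE 0.15, adjusted p = 5.69e-13). Between VAS Stra6-/- and VAS WT the difference of 0.33 did not pass (adjusted p = 0.128), although it passed in a fit of these 2 groups alone (adjusted p = 0.00722) and without VAD WT replicates 2 and 4 (adjusted p = 0.0167). Cldn2 lies on the X chromosome, and the part of the sex composition in its differences was not tested.

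Cldn12, a widely expressed claudin, and Cldn10, whose isoforms form ion channels, differed in how they moved. Cldn12 had values of 412 to 559.6 in VAS WT, 338 to 542 in VAD WT and 485 to 543 in VAS Stra6-/-, and these ranges overlapped one another. Between VAD WT and VAS WT the difference of -0.27 did not pass (adjusted p = 0.173), but it did at -0.36 without VAD WT replicate 2 (adjusted p = 0.0285). In the libraries labelled as VAD Stra6-/- it was 1227, 1160.0, 1100.4, 1009 and 1201, above every other library, with log2 fold changes of 1.15 (SE 0.12, adjusted p = 2.48e-08) against VAS Stra6-/- and 1.45 (SE 0.12, adjusted p = 7.46e-10) against VAD WT. Cldn10 was highest in VAS WT, at 238, 174, 213, 271 and 270.5, and lower in VAS Stra6-/- (182, 138, 128, 131 and 123). The difference was -0.72 (SE 0.15, adjusted p = 0.000744), with replicate 1 of VAS Stra6-/- above the lowest VAS WT library. It had values of 151 to 169 in VAD WT and 141 to 174 in the libraries labelled as VAD Stra6-/-, and the difference of -0.02 between them did not pass (adjusted p = 0.92).

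Cldn5, the claudin that seals the endothelium of retinal and brain vessels, was highest in VAS WT and lowest in VAS Stra6-/-. Its values were 1880.0, 1684, 1743, 1959.9 and 1983 in VAS WT and 847, 799, 639, 944 and 944 in VAS Stra6-/-, 2.22-fold lower in means. No library overlapped, and the log2 fold change was -1.16 (SE 0.11, adjusted p = 1.29e-07), while the 12 endothelial markers differed by -0.15 in their mean log2 value and 2 of the 12 were called lower. VAD WT had 1103, 1458, 1145, 1469 and 1154, below all VAS WT libraries, at -0.56 (SE 0.11, adjusted p = 0.0021). In the libraries labelled as VAD Stra6-/- it was 1076, 984, 1112, 957 and 1255, each above the highest VAS Stra6-/- library, with a log2 fold change of 0.37 (SE 0.11, adjusted p = 0.00643). Against VAD WT the difference of -0.23 did not pass (adjusted p = 0.0838), but it did at -0.28 without VAD WT replicate 1 (adjusted p = 0.0494) and at -0.29 without replicate 5 of the libraries labelled as VAD Stra6-/- (adjusted p = 0.0392).

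Cldn4, a barrier claudin of many epithelia, had the highest value per kb of the family in VAS WT and rose further in VAS Stra6-/-. It measured 4510.0, 4711, 4078, 4566 and 4518 in VAS WT and 8537, 8524, 7976, 9385 and 8943 in VAS Stra6-/-. The groups were apart by a log2 fold change of 0.95 (SE 0.10, adjusted p = 3.73e-07), and the summed surface epithelium markers also had separate ranges, 664979 to 775652 and 914228 to 950314, with 6 of 12 markers called higher and 3 lower. The ratio of Cldn4 to these markers, given further on, was higher in VAS Stra6-/- as well. In VAD WT the values 4104, 3334, 4199.8, 3367 and 4235 overlapped those of VAS WT, and the difference of -0.22 did not pass (adjusted p = 0.178). The libraries labelled as VAD Stra6-/- held only 402, 446, 488, 408 and 314, 21.1-fold lower in means than VAS Stra6-/-. The log2 fold change was -4.41 (SE 0.10, adjusted p = 6.73e-19) there and -3.23 (SE 0.10, adjusted p = 1.76e-16) against VAD WT.

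Cldn7, a claudin of the basolateral membrane as well as of junctions, fell the furthest of the 10 members in the libraries labelled as VAD Stra6-/-. Its values were 4115, 4039.6, 3782, 4295 and 4227 in VAS Stra6-/- and 117, 111, 118, 143 and 143 in the libraries labelled as VAD Stra6-/-. The means differed 32.4-fold, a log2 fold change of -5.01 (SE 0.22, adjusted p = 5.14e-14). VAS WT had 3447, 3616, 3456, 3877 and 3471, and VAD WT had 4402, 1756, 4657, 1659.6 and 4379. Replicates 1, 3 and 5 of VAD WT were thus above every VAS WT library and replicates 2 and 4 below every one, so that the difference of -0.23 (adjusted p = 0.606) became 0.33 (adjusted p = 0.00177) without replicates 2 and 4. Against VAD WT the libraries labelled as VAD Stra6-/- were lower by a log2 fold change of -4.59 (SE 0.22, adjusted p = 2.75e-13).

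Cldn3, which like Cldn4 is a receptor for a bacterial enterotoxin, had similar values in VAS WT (868, 1159, 924, 1015 and 947) and VAS Stra6-/- (942, 983, 922, 1038 and 929). The difference was -0.02 (adjusted p = 0.965) with overlapping ranges. VAD WT showed the same split as for Cldn7, with 1047, 471, 1026, 443 and 1139.9, and its difference from VAS WT of -0.36 (adjusted p = 0.421) turned to 0.13 (adjusted p = 0.605) without replicates 2 and 4. The libraries labelled as VAD Stra6-/- had 26.2, 42.4, 54.3, 54.4 and 59.2, all below the lowest library of any other group. The log2 fold change was -4.37 (SE 0.24, adjusted p = 1.67e-12) against VAS Stra6-/- and -4.03 (SE 0.24, adjusted p = 6.87e-12) against VAD WT. An exon of Cldn3 shares 40 bases with Wbscr25 on the opposite strand.

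Cldn23, a less studied epithelial claudin, was the only member of the surface epithelium class with separate ranges in all 4 groups. Its values were 1742, 1659, 1566, 1606 and 1578 in VAS WT, 1322, 1220.3, 1199.8, 1485 and 1383 in VAS Stra6-/- and 1181, 505, 1119, 597 and 1044 in VAD WT. The decrease in VAD WT from VAS WT was -0.96 (SE 0.20, adjusted p = 0.00393) and -0.55 (adjusted p = 0.00592) without replicates 2 and 4, and it did not pass in a fit of these 2 groups alone (adjusted p = 0.0651). The libraries labelled as VAD Stra6-/- had 71.5, 39.7, 76.8, 51.8 and 48.2, lower than VAS Stra6-/- by a log2 fold change of -4.53 (SE 0.20, adjusted p = 5.61e-14) and than VAD WT by -3.88 (SE 0.20, adjusted p = 7.98e-13).

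Cldn1, the claudin needed for the water barrier of the epidermis, did not follow the other members of the surface epithelium class. It measured 777, 843, 1017, 729.7 and 955 in VAS WT and 1614, 1727, 1590.2, 1752 and 1722 in VAS Stra6-/-. No library overlapped, at 0.97 (SE 0.18, adjusted p = 0.000309). In the libraries labelled as VAD Stra6-/- it was 4816, 4907, 4714, 4995 and 4688, 2.87-fold above VAS Stra6-/- in means, a log2 fold change of 1.52 (SE 0.18, adjusted p = 2.42e-07), where Cldn3, Cldn4, Cldn7 and Cldn23 all fell. VAD WT had 414, 719, 367, 953 and 458, and replicates 2 and 4, which had the lowest Cldn3, Cldn7 and Cldn23, had the highest Cldn1. The rise from VAD WT to the libraries labelled as VAD Stra6-/- was 3.15 (SE 0.18, adjusted p = 2.6e-12) and 3.55 (adjusted p = 1.11e-18) without these 2 replicates. Placing Cldn1 in the surface epithelium class therefore went against its values in these libraries.

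**Figure D3:**
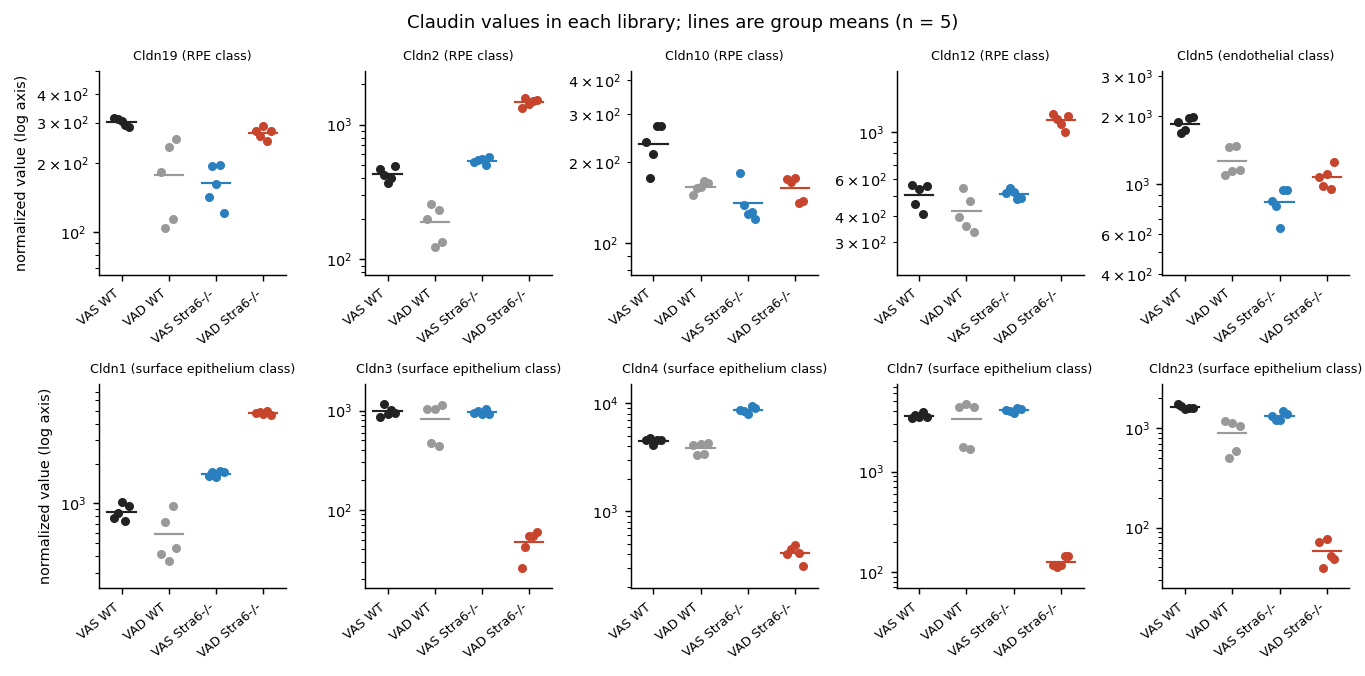
Points are the normalized values of the 5 libraries in each group, on log axes, with a line at the group mean. Cldn3, Cldn4, Cldn7 and Cldn23 are lowest and Cldn1, Cldn2 and Cldn12 highest in the libraries labelled as VAD Stra6-/-, and in VAD WT the Cldn3 and Cldn7 points split between replicates 2 and 4 and the other 3.

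The difference between the diets was itself different between the genotype labels for all 10 members by limma's interaction term, against 44.2% of all genes (19.5% higher and 24.8% lower). The term, the diet effect in Stra6-/- less that in WT, was positive for 6 members, from 0.70 for Cldn10 to 2.68 for Cldn2, and negative for 4, from -3.58 for Cldn23 to -4.78 for Cldn7. Adjusted p-values from limma ranged from 2.43e-15 for Cldn4 to 0.00809 for Cldn10. Without VAD WT replicates 2 and 4 all 10 were again called with the same signs, from -5.34 for Cldn7 to 2.96 for Cldn2, against 54.7% of all genes. Cldn2, for example, fell by 1.24 on the log2 scale with the VAD diet in WT and was higher by 1.44 in the libraries labelled as VAD Stra6-/-.

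Because the marker lists moved with the groups, each claudin was also set against the 12 markers of its class, as its log2 value less the mean log2 value of the markers in the same library. Differences between groups in this ratio were tested with two-sided exact permutation tests, which with 5 libraries against 5 cannot give a p under 0.00794, and adjusted over the 40 tests made. After adjustment 27 of 40 passed. The mean of the RPE markers was higher by 1.97 (log2) in the libraries labelled as VAD Stra6-/- than in VAS Stra6-/- and by 3.34 than in VAD WT, that of the endothelial markers by 0.70 and 0.58, and that of the surface epithelium markers was lower, at -4.23 and -3.49.

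Relative to the RPE markers, all 4 claudins of the RPE class were lower in the libraries labelled as VAD Stra6-/-, although 3 of them had higher values, and for Cldn2 this depended on the markers used. The ratio of Cldn19 differed by -1.22 from VAS Stra6-/- and by -2.65 from VAD WT, and that of Cldn10 by -1.77 and -3.36 (adjusted p = 0.0138 for each, exact permutation test). Cldn12 differed by -0.81 and -1.89 at the same adjusted p. For Cldn2 the differences were smaller, -0.53 (adjusted p = 0.0138, exact permutation test) and -0.33 (adjusted p = 0.0254). With the even-numbered markers alone they were -0.19 (adjusted p = 0.106) and 0.22 (adjusted p = 0.286, exact permutation test). On the VAS diet, where the RPE markers overlapped between the genotypes and differed by 0.11, the ratio in Stra6-/- differed from that in WT by -1.01 for Cldn19 and by -0.83 for Cldn10, both without overlap of the libraries. In the same comparison the ratio of Cldn2 was higher, by 0.22 (adjusted p = 0.0254, exact permutation test), which did not pass with the odd-numbered markers alone (0.13, adjusted p = 0.164), and that of Cldn12 differed by -0.08 (adjusted p = 0.392).

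Between VAD WT and VAS WT, where the RPE markers were lower by more than most claudins, no ratio of the RPE class was called lower. That of Cldn2 differed by 0.019 (adjusted p = 0.889, exact permutation test). The ratios of Cldn10 and Cldn12 were higher, by 0.75 (adjusted p = 0.0353) and 0.99 (adjusted p = 0.0138, exact permutation test). That of Cldn19 differed by 0.42 (adjusted p = 0.385), and by 1.14 (adjusted p = 0.0265, exact permutation test) without VAD WT replicates 2 and 4, where Cldn10 (1.05) and Cldn12 (1.12) again passed and Cldn2 (0.051) did not. Among the surface epithelium class only Cldn23 had a ratio that passed in this comparison, at -0.64 (adjusted p = 0.0138, exact permutation test), and without these replicates Cldn1 (-1.08) and Cldn7 (0.30) passed as well.

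The ratio of Cldn5 to the endothelial markers was highest in VAS WT. It differed by -1.01 in VAS Stra6-/- and by -0.53 in VAD WT (adjusted p = 0.0138 for each, exact permutation test), with no overlap in either case, and the latter was -0.18 without VAD WT replicates 2 and 4 (adjusted p = 0.0493). In VAD WT replicates 2 and 4, where the endothelial markers were highest, Cldn5 was also highest in its group. Cldn5 and its markers both rose from VAS Stra6-/- to the libraries labelled as VAD Stra6-/-, and the ratio there differed by -0.33 without passing (adjusted p = 0.0547, exact permutation test). With the odd-numbered markers alone that difference passed, at -0.46 (adjusted p = 0.0254). Against VAD WT the Cldn5 ratio in these libraries was lower by a difference of -0.81 (adjusted p = 0.0138, exact permutation test), without overlap. Without VAD WT replicates 2 and 4 it was -1.16 (adjusted p = 0.0265).

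In the surface epithelium class, the drop of Cldn4 in the libraries labelled as VAD Stra6-/- did not differ from that of the markers beyond the spread between libraries, while that of Cldn3 was larger than that of the markers against VAD WT but not against VAS Stra6-/-. The Cldn4 ratio was -2.32 ± 0.29 (log2, SD, n = 5) in these libraries and -2.14 ± 0.09 in VAS Stra6-/-, and the difference of -0.17 did not pass (adjusted p = 0.298, exact permutation test). Nor did that of 0.26 from VAD WT (adjusted p = 0.246). For Cldn3 the ratios were -5.45 ± 0.48 and -5.31 ± 0.08, a difference of -0.14 (adjusted p = 0.814). Against VAD WT the Cldn3 ratio was lower by a difference of -0.55 (adjusted p = 0.0353, exact permutation test), which did not pass without VAD WT replicates 2 and 4 (-0.69, adjusted p = 0.067) or with the odd-numbered markers alone (-0.41, adjusted p = 0.0588). The Cldn23 ratio differed by -0.30 (adjusted p = 0.138) and -0.40 (adjusted p = 0.0547), and the latter passed with the even-numbered markers alone (-0.54, adjusted p = 0.0366). Cldn7 fell further than the markers, with ratio differences of -0.78 from VAS Stra6-/- and -1.10 from VAD WT (adjusted p = 0.0138 for each, exact permutation test). Cldn1 went the other way, and its ratio to these markers was higher by 5.76 and 6.63. Set against the RPE markers instead, a choice made after its values were seen, Cldn1 differed by -0.45 from VAS Stra6-/- and by -0.19 from VAD WT. On the VAS diet the ratio to the surface epithelium markers differed between the genotypes for every member of the class, with no overlap of the libraries. It was higher in VAS Stra6-/- than in VAS WT for Cldn1 (0.54) and Cldn4 (0.53). For Cldn3 (-0.45), Cldn7 (-0.23) and Cldn23 (-0.73) it was lower (adjusted p = 0.0138 for each member, exact permutation test).

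**Figure D4:**
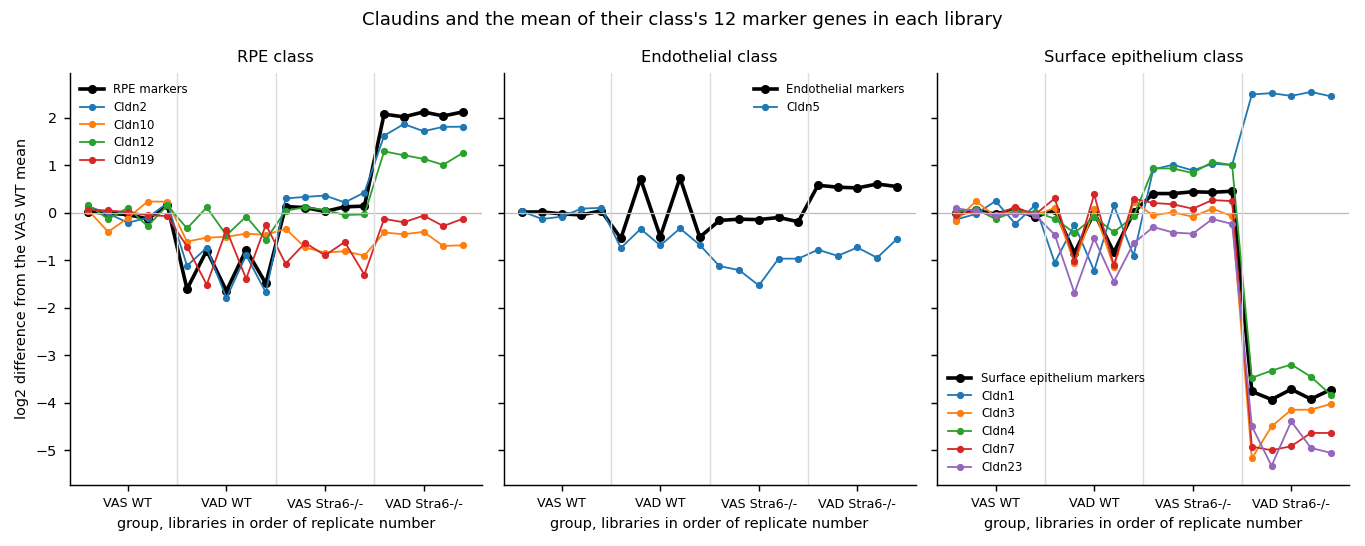
Lines join the 20 libraries in order of group and replicate number and give each claudin, and in black the mean of its class's 12 markers, as the log2 difference from the VAS WT mean. Cldn3, Cldn4, Cldn7 and Cldn23 follow the surface epithelium markers down in the last 5 libraries, and Cldn1 rises above them. Cldn19, Cldn10, Cldn12 and Cldn2 stay below the RPE markers there, Cldn2 by the least.

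The genes of other tight junction proteins were mostly lower in the libraries in which the surface claudins were lower. Of 23 further tight junction genes measured, 17 were lower and 2 higher in the libraries labelled as VAD Stra6-/- than in VAS Stra6-/-, against 28.8% of all genes lower and 24.4% higher, with a median log2 fold change of -1.26 against -0.07 over all genes. Against VAD WT 16 were lower and 7 higher, and of all genes 29.6% were lower and 26.2% higher. The counts of the list were the same without VAD WT replicates 2 and 4, where 6108 of all 18807 genes were lower and 5765 higher. Ocln, the membrane protein occludin, measured 763, 718, 739, 708 and 755 in VAS Stra6-/- and 186, 231, 188, 169 and 173 in the libraries labelled as VAD Stra6-/-. Those ranges were far apart, at -1.96 (SE 0.12, adjusted p = 1.74e-11). Tjp1, the scaffold ZO-1 that anchors claudins to actin, went from 4485 ± 273 (SD, n = 5) to 1001 ± 94.5 with a log2 fold change of -2.17 (SE 0.10, adjusted p = 8.97e-14). The scaffold Tjp3 (ZO-3) fell by an amount within the range of the surface claudins, at -4.45 (SE 0.24, adjusted p = 1.01e-12), while cingulin (Cgn) and the tricellular protein Marveld2 fell by 1.70 and fell by 2.52 on the log2 scale. Between VAS Stra6-/- and VAS WT 12 of the 23 were higher and none lower (15.9% and 10.8% of all genes), Ocln (0.41) and Tjp1 (0.67) among them, and in VAD WT 5 were lower than in VAS WT (5.50% of all genes), Ocln (-0.44) included, and none higher. Without VAD WT replicates 2 and 4 the latter counts were 8 lower and 5 higher, against 20.3% and 17.6% of all genes.

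Partners and regulators of epithelial claudins moved further. Of 17 such genes, 14 were lower and 1 higher in the libraries labelled as VAD Stra6-/- than in VAS Stra6-/-, against 28.8% and 24.4% of all genes, with a median log2 fold change of -4.61 against -0.07 over all genes. Against VAD WT 14 were lower and 2 higher (29.6% and 26.2% of all genes). The counts were the same without VAD WT replicates 2 and 4, where 6108 of all 18807 genes were lower and 5765 higher. Epcam, a membrane protein that binds Cldn7, fell from 1363 ± 60.6 (SD, n = 5) to 48.9 ± 13.2, a log2 fold change of -4.81 (SE 0.26, adjusted p = 8.86e-13). The transcription factor Grhl3, of the grainyhead-like family that activates Cldn4 in epithelia, fell from 1717 ± 51.3 (SD, n = 5) to 31.4 ± 12.7, at -5.82 (SE 0.19, adjusted p = 3.06e-16). In VAS Stra6-/- it exceeded VAS WT by 0.93 (SE 0.19, adjusted p = 0.000879), the direction also seen for Cldn4. Elf3, an epithelial ETS factor, was 12195 ± 366 (SD, n = 5) in VAS Stra6-/- and 411 ± 22.8 in the libraries labelled as VAD Stra6-/-, at -4.89 (SE 0.18, adjusted p = 2.18e-15). In VAD WT 1 of the 17 was lower than in VAS WT and none higher (5.50% and 3.29% of all genes), but 2 were lower and 5 higher without VAD WT replicates 2 and 4 (20.3% and 17.6%). In VAS Stra6-/- 7 were higher and 1 lower (15.9% and 10.8% of all genes). The surface epithelium markers fell in the same libraries, all 12 of them, and their part in these list changes was not tested.

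The table holds 22 further rows of the family, of which 8 were at 0 in every library and 13 passed the filter. With 6 exceptions no group mean reached 20. The highest was Cldn11, the claudin of myelin, at 266 ± 154 (SD, n = 5) in VAD WT, and it was called in no comparison. Of these 13, 4 were called lower and 1 higher in the libraries labelled as VAD Stra6-/- than in VAS Stra6-/-, against 28.8% and 24.4% of all genes. Cldn17, a channel for anions, and Cldn8, a barrier claudin, were among the 4 called lower. Cldn17 had 111, 90, 99.6, 77.7 and 69.3 in VAS Stra6-/- and 3.02, 0, 0, 2.63 and 0 in those libraries. Cldn8 lay at 45 to 65.9 in the former group and at 0 to 11.1 in the latter, with a log2 fold change of -3.67 (SE 0.48, adjusted p = 1.09e-06). Cldn22 was higher, 123 to 204 against 42.2 to 68.1, but its single exon lies wholly within exons of Wwc2 on the opposite strand, and since the strand setting of the counts is not given in the sources used here its reads may belong to either gene.

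Across the 20 libraries, the 3 genes most like each member, by Pearson's r of log2(value + 1) over 13519 genes with a mean of at least 50, differed by class. Those of Cldn7 were the keratin Krt6b (r = 0.999), Mal (r = 0.998) and Scel (r = 0.998), those of Cldn4 were Krt6a (r = 0.996), Net1 and Adam28, those of Cldn3 were Tjp3, Krt6b and Cldn7, and those of Cldn23 were Ifit1bl1, Krt15 and Prss22. Cldn1 was most like the amino acid transporter subunit Slc3a2 (r = 0.993), the melanosome gene Oca2 (r = 0.991) and Serpina3n (r = 0.988). Cldn2 was most like Dhrs1 (r = 0.989), Lyz2 and Lrp8, and Cldn12 like Cpq (r = 0.984), Sccpdh and Pde1c. The closest genes were less like Cldn19 and Cldn10, with a highest r of 0.900 for Cldn19 (Zfp579) and 0.807 for Cldn10 (Cldn5). Between members, r was 0.957 for Cldn1 and Cldn2, 0.994 for Cldn3 and Cldn7 and -0.835 for Cldn1 and Cldn3. The 20 points of each r fall into 4 groups and share the same size factors and marker differences, so no p is given for them.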

How the data were processed

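RNA of the outer eyecup was sequenced in 20 libraries, 5 per group, with oligo(dT) selection and paired-end reads. The study's methods give a single mouse per library, which the sex-linked transcripts of the libraries labelled as VAD Stra6-/- put in doubt. The VAD WT libraries also held both Xist and Ddx3y, with 1 of them at a low level. Per the submitters' processing notes, STAR 2.5.3a, RSEM 1.2.30 and DESeq2 1.32.0 were used with GRCm38/mm10. Each deposited value is a signal, which the authors made by dividing reads per gene by a DESeq2 size factor of the library, with no length or log scaling. In 19 libraries 100% of the values came out as whole reads when multiplied by the size factor (tolerance 1e-06 of a read). For replicate 1 of the libraries labelled as VAD Stra6-/- recovery was not claimed, so tests on counts used 19 libraries. The reads numbered 13331903 to 21878614 per library, with a median of 17790113. Samples were grouped by the labels, and the strand setting of the counting is not given in the sources used here.

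Genes with a total of at least 5 reads were kept (18807 of 24411) and tested with limma 3.58.1 in R 4.3.3 on log2(value + 1), with 4 group means over all 20 libraries, an intensity trend and Benjamini-Hochberg adjustment. The added 1 understates the change of low genes. On the recovered counts edgeR 4.0.16 called 4219 genes higher and 5721 lower between the libraries labelled as VAD Stra6-/- and VAD WT, where limma called 4935 and 5569. Both fits were first tested on simulated data. Ratios of claudins to markers were compared with exact permutation tests over libraries. Levels were scaled by the union of exons from GENCODE vM21, and promoters came from RefSeq (GRCm38.p6).

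The members, the gene lists and the rule for named genes were chosen with earlier results of these data known. The rule took all 10 claudins, the other claudin rows with a group mean of at least 20, Stra6, named members of the tight junction and partner lists, and the 3 genes most correlated with each claudin. Of the genes that the rule named, 2 are not reported here. Patj was measured under its older symbol Inadl, and Pals1 had no entry apart from Mpp5. Alternatives covered the pseudocount (0.5 and 4), TMM factors, the filter, edgeR, DESeq2 1.42.0, the groups in the fit, a replicate block, a log2 fold change threshold of 2, marker lists cut to alternate genes, transcript length and leaving out libraries.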

Additional observations from a re-analysis of the deposited data

Results flagged for a closer look

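Among 40 sets of 5 libraries (10 claudins in 4 groups), 1 held a library far from the others by Dixon's ratio at a critical value of 0.710, a rate that chance gives in about 1 of 20 sets. This was Cldn10 in VAS Stra6-/-, where replicate 1 stood at 182 and its gap to the next library was 0.737 of the range of the group.

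The difference between the diets was not the same in WT and in the libraries labelled as Stra6-/- by limma's interaction term for all 10 claudins. The term was positive for Cldn1 (2.18), Cldn2 (2.68), Cldn5 (0.93), Cldn10 (0.70), Cldn12 (1.42) and Cldn19 (1.59), on the log2 scale. It was negative for Cldn3 (-4.01), Cldn4 (-4.18), Cldn7 (-4.78) and Cldn23 (-3.58). Among all genes 44.2% were called by the same term. Of the 20 libraries behind it, the 5 labelled as VAD Stra6-/- had Stra6 above VAD WT, and their surface epithelium and RPE markers differed from those of all other libraries. The part of these differences in the interaction terms was not tested.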

How the results depend on the processing

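Of 540 fold changes of the 10 claudins refitted under alternatives other than leaving out 1 library, 502 kept their direction and their side of the threshold, as did 583 of 600 when 1 library was left out. A threshold of 2 on the log2 fold change left 0 claudins higher and 0 lower between VAS Stra6-/- and VAS WT, 0 lower between VAD WT and VAS WT, 0 higher between the libraries labelled as VAD Stra6-/- and VAS Stra6-/-, 2 higher against VAD WT and 2 higher by the interaction. The share of all genes beyond this threshold was not counted. Fitted on the 2 groups alone, 4 claudins were higher in VAS Stra6-/- than in VAS WT, and 2 were lower in VAD WT than in VAS WT. In these fits Cldn7 (adjusted p = 0.00435) and Cldn23 (adjusted p = 0.002) also passed in VAS Stra6-/-, and over all genes limma called 4537 higher and 3671 lower there in place of 2984 and 2026, and 201 higher and 438 lower in VAD WT in place of 618 and 1034. Without VAD WT replicates 2 and 4, 4 claudins were higher in VAS Stra6-/- and 1 was higher in VAD WT than in VAS WT. Over all 18807 genes limma then called 4225 higher and 3299 lower in VAS Stra6-/-, and 3306 higher and 3818 lower in VAD WT. The cause of these shifts was not tested.

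Directions turned without VAD WT replicates 2 and 4 for Cldn3 (0.13) and Cldn7 (0.33) between VAD WT and VAS WT, and in the ratios to the surface epithelium markers for Cldn3 (0.10) and Cldn4 (-0.12). Between VAS Stra6-/- and VAS WT, Cldn12 turned to -0.0075 with edgeR, and leaving out 1 library gave -0.044 to 0.066 for Cldn12 and -0.066 to 0.038 for Cldn3. Cldn10 lay between -0.055 and 0.020 without 1 library, positive without replicate 4 or 5 of the libraries labelled as VAD Stra6-/-, compared with VAD WT. With the even-numbered markers of each list alone, the ratio turned for Cldn2 (-0.092 in VAD WT against VAS WT, and 0.22 in the libraries labelled as VAD Stra6-/- against VAD WT), for Cldn3 (0.028 in VAD WT) and for Cldn12 (0.018 in VAS Stra6-/-). None of these reversed values but that of Cldn7 passed. Set against the RPE markers, the Cldn1 ratio turned to 0.61 in VAD WT against VAS WT, and to -0.45 and -0.19 in the libraries labelled as VAD Stra6-/- against VAS Stra6-/- and VAD WT (a choice made after seeing the data). Of 40 ratios, 26 passed with a pseudocount of 4, 26 with either set of alternate markers and 29 without VAD WT replicates 2 and 4. Leaving out 1 library gave 4 to 7 claudins lower in VAD WT than in VAS WT, where 810 to 1471 of all 18807 genes were lower. It gave 4 to 5 lower in the libraries labelled as VAD Stra6-/- than in VAD WT, where 5322 to 5730 of all genes were lower. The claudin counts in the other comparisons did not change.

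The replicate numbers did not pair the libraries: same-numbered libraries of different groups deviated from their group means with correlations of -0.199 to 0.145, over 0.1 in 1 of 30 pairs. With a replicate block, 5 claudins were lower in VAD WT than in VAS WT, against 932 of all 18807 genes. Cldn10 no longer passed by limma (-0.51, adjusted p = 0.0567), and the block changed no other claudin count. Intervals from 5 libraries per group leave changes below the spread between libraries undetected.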
